A study of Mus musculus with 4 samples.

Results

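The Myc network is a group of transcription factors that compete for shared partners, described here by where bulk ATAC-seq found open chromatin around their genes in mouse salivary gland organoids (mSGOs). The 9 genes examined were Myc, its neighbour Pvt1, Mycn, Mycl, Max, Mxd1, Mxi1, Mnt and Mlx, of 40302 genes with a known strand in the RefSeq table of the GRCm38.p6 mouse assembly. All 9 were found, 8 protein-coding genes and the lncRNA gene Pvt1. The members other than Myc were listed for their role in the network or, for Pvt1, its place beside Myc. All members and the further gene lists below were chosen with earlier results of these data known. The Myc locus was chosen by its number of open regions in this same list, which include those in Pvt1. All numbers of regions around Myc and in Pvt1 are therefore given as a description only. Within 1.5 Mb of the Myc 5′ end lay 46 of the 32011 distinct regions, fewer than the median of 52 (quartiles 37 and 67) in windows of that size around all protein-coding 5′ ends.

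ATAC-seq marks stretches of the genome that the Tn5 transposase can enter. The labels describe 4 samples of organoids grown from submandibular salivary glands of C57BL/6 mice, none of them irradiated, in WRY medium with Wnt3a- and R-spondin1-conditioned medium, EGF, FGF2, insulin, dexamethasone and Y27632. There were 2 samples of passage 1 and 2 of passage 2, each passage with 1 sample labelled 12-week-old and 1 labelled 3-month-old, taken from different mice according to the methods, and no untreated tissue or irradiated culture was among them. The authors merged the samples into 1 list of regions, without values by sample, so that spread between mice, passages or ages and the depth of a sample are unknown, and no test could be made. The list gives for each region an IDR score, a fold of signal over the local background and a q-value, as the authors' peak caller computed them. An absent region, as at Myc, Mycn and Mlx, means only that the list analysed here holds none there. The count of consensus peaks in the paper's methods matches neither the 69545 lines nor the 32011 distinct regions of this list. How the list relates to that consensus is not known. Whether a region at these genes fell below the threshold is not known either, and an absence is not a measurement of closed chromatin. A region lay within 1 kb of the 5′ end in 5 of 7 epithelial marker genes (Epcam, Krt8, Krt5, Krt14 and Sox9, but not Krt18 or Trp63). It did so in 0 of 3 immune, 0 of 3 endothelial and 0 of 3 fibroblast markers, which are short lists beside a share of 40.7% of all protein-coding genes. The defining markers Ptprc, Pecam1 and Col1a1 were among those without one, although Pecam1 held 3 regions inside the gene. Regions over 1 kb from every protein-coding 5′ end were most numerous near Sox9 (23) and Trp63 (21), followed by the endothelial Cdh5 (7) and the fibroblast marker Dcn (6).

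Myc, Mycn and Mycl drive growth, ribosome production and the cell cycle. They bind DNA as dimers with Max, at a short palindrome called the E-box. Mxd1, Mxi1 and Mnt pair with Max as well and repress through the same sites, and Mlx pairs with the glucose-responsive factors Mlxip and Mlxipl and with some of the repressors. Myc lies in a long stretch almost without other coding genes, where enhancers of different tissues are known to act over long distances, several of them in or near Pvt1.

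RefSeq promoters of GRCm38.p6 were matched for 7 of the 9 genes, with 9 start sites in all. Myc and Pvt1 were the genes not matched, so that their promoters were not searched for any motif. The stretches shown run 5′ to 3′ from 250 bases before the start site to the first 10 bases from it. Max, Mnt and Mlx are shown because theirs are the member promoters that hold the E-box CACGTG, which is in capitals.

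Max (chr12:76962239-76962498, - strand): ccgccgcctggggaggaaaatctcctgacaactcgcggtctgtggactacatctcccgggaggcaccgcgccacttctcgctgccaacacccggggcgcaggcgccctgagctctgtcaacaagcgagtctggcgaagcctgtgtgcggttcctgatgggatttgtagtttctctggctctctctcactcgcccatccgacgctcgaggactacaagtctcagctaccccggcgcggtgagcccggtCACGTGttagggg

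Mnt (chr11:74830674-74830933, + strand): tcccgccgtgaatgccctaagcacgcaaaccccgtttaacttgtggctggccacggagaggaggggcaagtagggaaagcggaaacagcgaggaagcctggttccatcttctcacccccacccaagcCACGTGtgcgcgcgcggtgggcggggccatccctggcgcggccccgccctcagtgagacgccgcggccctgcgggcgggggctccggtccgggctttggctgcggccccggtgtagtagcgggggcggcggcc

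Mlx (chr11:101087040-101087299, + strand): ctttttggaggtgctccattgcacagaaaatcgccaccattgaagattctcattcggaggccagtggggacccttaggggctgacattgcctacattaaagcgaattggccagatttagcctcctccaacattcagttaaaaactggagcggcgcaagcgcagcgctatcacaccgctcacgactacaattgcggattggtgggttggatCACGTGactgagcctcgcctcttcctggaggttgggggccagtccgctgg

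In Max, the E-box began 3 bases before the start site, in Mnt 123 bases and in Mlx 40 bases. All 260 bases shown for Max and 235 of those for Mnt lay in an open region, whereas 0 of those for Mlx did. Among all 32851 RefSeq promoters, CACGTG, which reads the same on both strands, was present in 7.15% within the 300 bases of each. A match describes the letters of this window and does not show that a factor binds there.

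Mxd1 and Mycn are shown for contrast, since neither promoter holds the E-box and an open region covers that of Mxd1 alone. In Mxd1 the capitals mark CCAAT (its other strand reads ATTGG), and in Mycn they mark GGGCGG or, on the other strand, CCGCCC.

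Mxd1 (chr6:86669150-86669409, - strand): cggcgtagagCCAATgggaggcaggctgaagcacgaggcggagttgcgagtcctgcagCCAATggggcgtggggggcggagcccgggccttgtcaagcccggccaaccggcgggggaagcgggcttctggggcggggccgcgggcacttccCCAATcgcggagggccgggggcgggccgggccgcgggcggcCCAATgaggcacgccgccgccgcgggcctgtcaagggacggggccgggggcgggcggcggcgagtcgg

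Mycn (chr12:12941827-12942086, - strand): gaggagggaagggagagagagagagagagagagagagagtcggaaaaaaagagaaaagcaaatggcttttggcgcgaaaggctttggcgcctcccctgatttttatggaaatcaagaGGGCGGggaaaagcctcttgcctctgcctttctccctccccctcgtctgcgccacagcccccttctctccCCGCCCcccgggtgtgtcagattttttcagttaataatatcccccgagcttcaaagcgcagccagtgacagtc

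The Mxd1 promoter held 4 CCAAT boxes, all on the strand shown, between 58 and 240 bases before the start site, where 37.4% of all promoters had at least 1. The Mycn promoter held 2 GC boxes, a motif present in 35.7% of all promoters. That of Mxd1 held more, 6, which are not in capitals above. The promoters of all 7 genes were searched on both strands for the TCF/LEF letters CTTTGAT and the AP-1 letters TGACTCA, which 3.73% and 5.20% of all promoters hold, and none had either. TATAAA was found in that of Mycl alone, beginning 8 bases before the start site.

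At the 5′ ends, the network was open in part. The midpoint of a region was found at most 1 kb from the outermost 5′ end of Mycl, Max, Mxd1, Mxi1 and Mnt, that is of 5 of the 8 protein-coding members, and of none of Myc, Mycn and Mlx. Among all 19666 protein-coding genes, 40.7% had such a region. Pvt1 had none, as a lncRNA gene, a class in which 15.6% had one.

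Of the activators, Mycl alone had a region at the 5′ end, and it had an IDR score of 603 and was in neither the stricter set (regions with a q-value at or below the median of the list) nor the set with a score of 1000, where no activator had one. It lay at chr4:122995369-122996010 with 4 summits, covered the 5′ end and had a fold of 6.22 over the local background, which placed it above 35.5% of all regions. A stronger region, with a fold of 9.24, lay 10.3 kb upstream at chr4:122985120-122985398. Mycn, the family member best known from neural and embryonic tissue, had no region within 100 kb on either side. The nearest to it were a region 135 kb upstream, at chr12:13076904-13077365, with a fold of 10.8, and another 265 kb downstream with a fold of 5.92.

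Max, the partner that all Myc and Mxd proteins need, had the strongest region at a 5′ end among the members. This region covered the 5′ end at chr12:76961945-76962777, with 4 summits and a fold of 13.7, above 94.9% of all regions. Another 3 regions lay farther away and nearest to Max, at 34.8 kb downstream with a fold of 9.35, and at 58.0 and 63.4 kb upstream with folds of 11.7 and 5.89. Of these 4 regions, all but that at 63.4 kb reached the highest IDR score.

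Among the members, the repressors Mxd1, Mxi1 and Mnt all had an open 5′ end, as had 40.7% of all protein-coding genes. They differed in strength and in what surrounded it. Mxd1 had a fold of 12.9 at chr6:86669082-86669656, above 93.0% of all regions, and no distal region nearest to it. Mnt had 2 regions within 1 kb, of which the stronger lay 404 bp upstream at chr11:74830183-74830621 with a fold of 8.83, and the other covered the 5′ end with a fold of 4.38. Mnt held 4 region midpoints inside the gene. The first of its regions past the 1 kb limit lay 1366 bp downstream, with a fold of 5.64, and the one just inside was that at 404 bp.

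Mxi1 had the weakest 5′ end region of the 5 genes, at chr19:53310342-53310584 with a fold of 3.998, above only 1.95% of all regions. Its strongest region lay inside the gene, 4.14 kb downstream of the 5′ end at chr19:53314091-53314448, with a fold of 9.90. RefSeq gives Mxi1 3 start sites. The other two share a region of 599 bp, at chr19:53329207-53329805, with a fold of 5.54, so that all 3 start sites were overlapped by a region. Another 4 regions lay from 26.2 to 81.7 kb upstream, with folds from 4.91 to 8.43.

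Mlx had no region at the 5′ end, in the gene or nearest to it. The closest midpoint lay 8.74 kb downstream and nearer to another gene, and the sequence nearest to the Mlx 5′ end measured only 6.44 kb. Over all protein-coding genes, 41.9% held a region midpoint in the gene, against 3 of the 8 members (Mycl, Mxi1 and Mnt). At least 1 distal region lay nearest to the 5′ end in 43.5%, against 6 of the 8. The 6 were Mycn, Mycl, Max, Mxi1, Mnt and Myc, of which Myc was counted although its locus was chosen by its number of regions. Distal means over 1 kb from every protein-coding 5′ end.

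**Figure D1:**
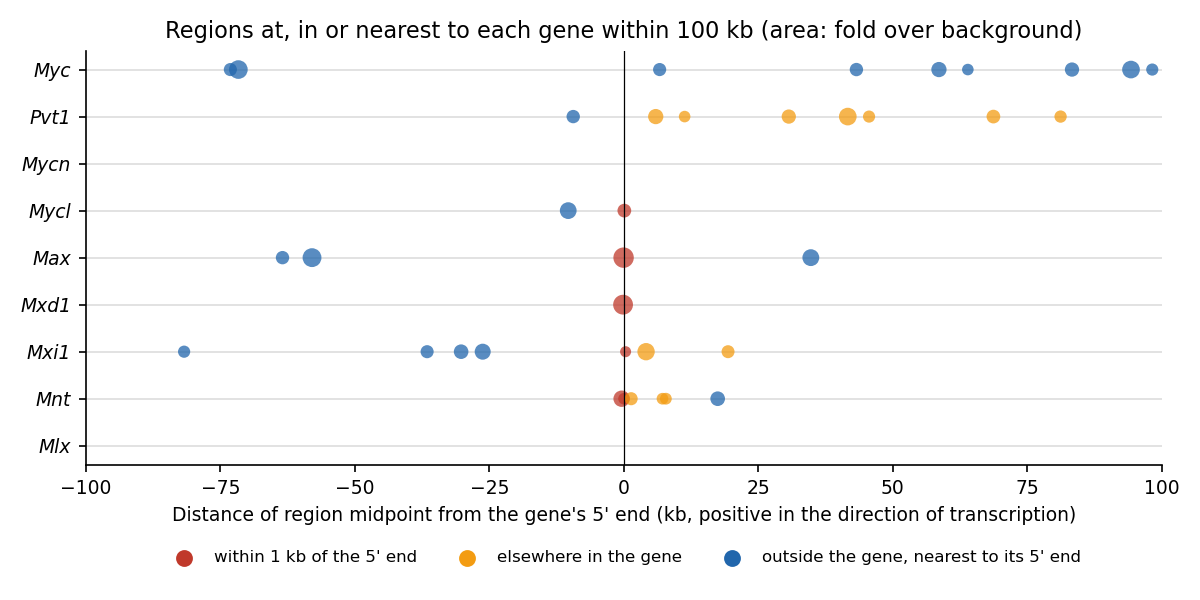
Regions at, in or nearest to each of the 9 genes and within 100 kb of its 5′ end, by distance of the midpoint in kb. Point area is in proportion to the fold over the local background. Regions farther away, those of Mycn among them, are not drawn. For Pvt1, nearest refers to 5′ ends of every gene type, and for the other genes to protein-coding ones. Red points within 1 kb of the 5′ end are present for Mycl, Max, Mxd1, Mxi1 and Mnt, and the points from 58.6 to 98.2 kb downstream of Myc also lie inside Pvt1.

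Around Myc itself, no region lay within 2 kb of the 5′ end or inside the gene of 5.02 kb. The nearest was 6.66 kb downstream, 1.64 kb beyond the 3′ end of Myc, at chr15:61991829-61992181, with a fold of 5.69. Upstream, the first region was 71.6 kb away. Between that region and the nearest downstream one, 77895 bp that include Myc held no region.

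Despite the unmarked 5′ end, 31 distal regions lay nearest to that of Myc, 10 upstream and 21 downstream, which tied with Tbl1xr1 for the second place among all protein-coding genes after Klf6 with 34. The median over all protein-coding genes was 0, with an upper quartile of 1. These numbers were in part what led to the choice of the locus and stand as a description. The sequence nearest to the Myc 5′ end is long, at 1444 kb, because Lratd2 and A1bg, at −1159 and −1064 kb (minus for upstream), were the only other protein-coding 5′ ends within 1.5 Mb, and the next downstream, that of Gsdmc, lay 1823 kb away. Neither neighbour had a region at its 5′ end or inside the gene. Per length, Myc had 2.15 distal regions per 100 kb, and it stood at place 40 among 1083 genes with a stretch of at least 500 kb, whose median was 0.211 per 100 kb with quartiles of 0 and 0.730.

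The 5 genes shown as closest to Myc in number of distal regions were Tbl1xr1 (31), Klf6 (34), Efna5 (28), Foxp1 (27) and Efnb2 (26), compared over this 1 list. Adgrl2 and Jag1 also had 26, and Efnb2 was taken because its stretch was nearest to that of Myc in length. Per 100 kb, these genes had 1.3, 3.51, 1.25, 2.86 and 1.45 regions, so that Myc lay between them. Tbl1xr1, Klf6 and Efnb2 had a region at the 5′ end, whereas Efna5 and Foxp1, like Myc, had none. Foxp1 differed from Myc in holding 23 region midpoints inside the gene, where Myc held 0.

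**Figure D2:**
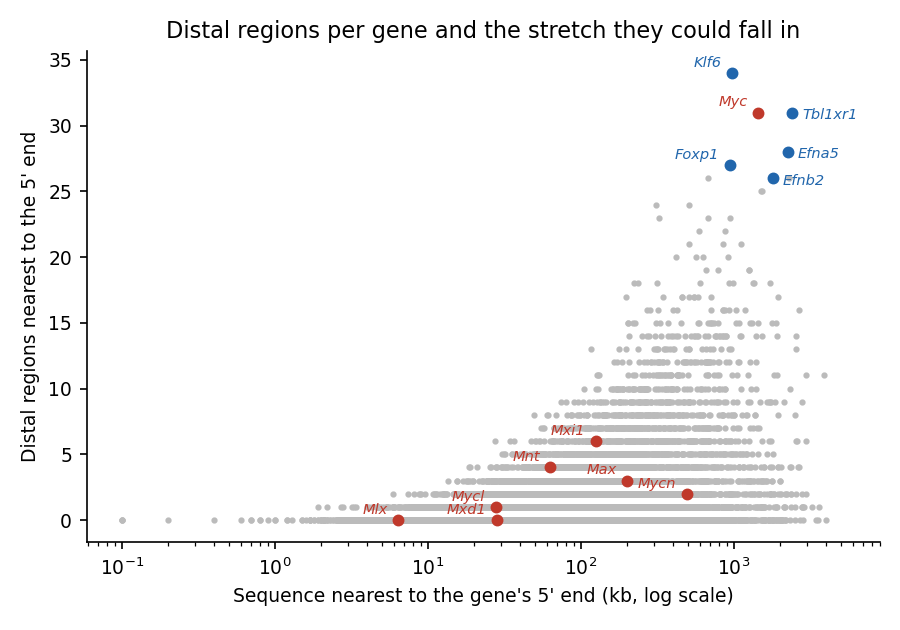
Number of distal regions nearest to a gene's 5′ end against the length of sequence nearest to it in kb (log scale), with 1 grey point for each protein-coding gene, the members in red and the 5 genes shown as closest to Myc in number in blue. Myc stands at 31 regions over 1444 kb, while the other 7 protein-coding members have 0 to 6.

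The 46 regions of the window were more than in 37.6% of the windows around all protein-coding genes. Among the 443 genes with at most 5 other protein-coding 5′ ends in the window, as for Myc, the median was 11, with quartiles of 2 and 25. The regions around Myc fell on both sides, 20 upstream and 26 downstream. They were not evenly spread. Downstream, 14 lay within 250 kb of the Myc 5′ end, and 12 from there to 1500 kb. Upstream, only 2 lay within 250 kb, at 71.6 and 73.1 kb, and 7 between 250 and 500 kb. Between 50 and 100 kb downstream the density was 10.0 regions per 100 kb, and beyond 1000 kb it was 0.600 upstream and 0.800 downstream. All distal regions together had a density of 0.939 per 100 kb, and those of chromosome 15 one of 0.998. Around the Pvt1 5′ end, the same window of 1.5 Mb held 46 regions as well.

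**Figure D3:**
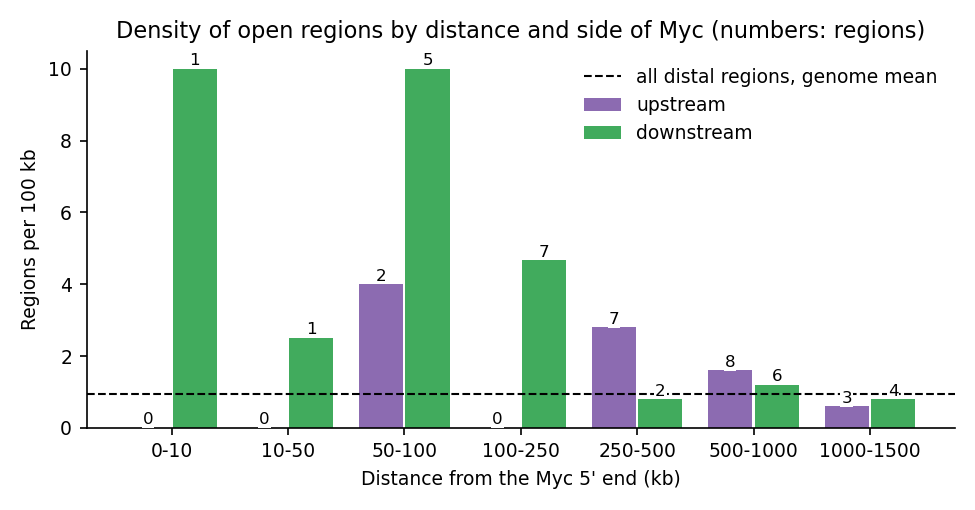
Open regions per 100 kb in steps of distance from the Myc 5′ end in kb, upstream and downstream, with the number of regions above each bar and the density of all distal regions as a dashed line. The highest bars are downstream, at 10.0 per 100 kb from 0 to 10 kb (1 region) and from 50 to 100 kb (5 regions).

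Pvt1, a lncRNA gene whose 5′ end lies 52.6 kb downstream of that of Myc, held 13 of the 26 downstream regions. Its 13 midpoints were spread along 222 kb, or 5.85 per 100 kb, against 1.19 per 100 kb in the rest of the window. Among lncRNA genes, 22.2% held any region midpoint. Among 970 genes of every type between 150 and 300 kb long, the median was 2 regions, with quartiles of 0 and 4, and 12 genes held more than Pvt1, whose regions are among those by which the locus was chosen. In the 78 lncRNA genes of that length, the median was 1 and a single gene held more.

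The regions in Pvt1 began 5.94 kb into the gene, where a region at chr15:62043743-62044103 had a fold of 7.65. The strongest lay 41.6 kb into the gene and 94.3 kb from the Myc 5′ end, at chr15:62079252-62079994, with 4 summits and a fold of 10.3. The next had a fold of 8.85, from 62162044 to 62162644. The weakest had a fold of 4.42, and the median of the 13 was 6.19, against 6.70 for the 33 other regions of the window. Their midpoints were a median of 15 kb apart, against 34.2 kb in the whole window and 30.0 kb between neighbouring distal regions of all chromosomes. No region lay within 2 kb of the Pvt1 5′ end, and the nearest upstream was 9.40 kb away.

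The strongest regions of the window were not close to Myc. The highest fold, 11.8, was that of a region 343 kb downstream and past the end of Pvt1, at chr15:62328266-62328895, with 4 summits. A region 713 kb downstream, from 62698566 to 62698998, also had a fold of 11.8. Upstream, the region at 71.6 kb (61913460 to 61913933) had a fold of 11.4 and that at 366 kb (61619037 to 61619533) a fold of 10.8. A fold of 10.8 was shared by the regions 531 kb upstream and 1268 kb downstream. The former, from 61453758 to 61454726, was the widest of the window with 969 bp and had the most summits, 7.

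**Figure D4:**
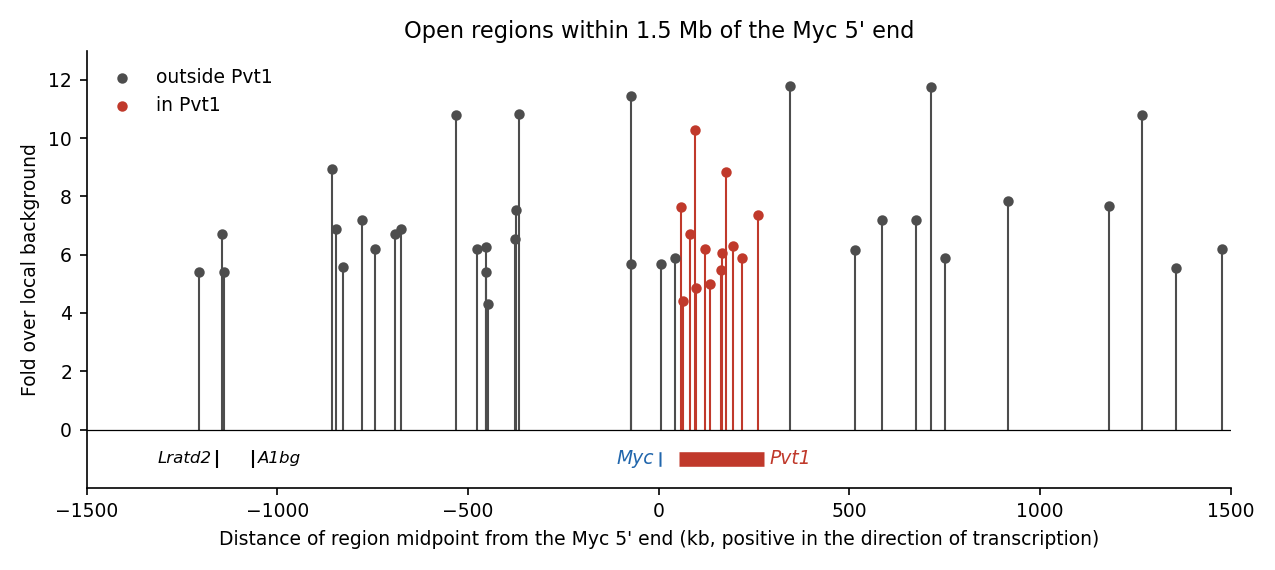
Fold over the local background of the 46 open regions by distance of their midpoint from the Myc 5′ end in kb, with the genes drawn to scale below and the 13 regions in Pvt1 in red. The 6 regions with a fold of 10.8 or more lie at 71.6 kb or more from Myc, and all of them lie outside Pvt1.

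Most of the regions near Myc were of moderate strength. Their median fold was 6.42 (quartiles 5.74 and 7.62), against 6.88 (quartiles 5.58 and 8.94) for all 23893 distal regions. The highest IDR score, 1000, was reached by 12 of the 46 (26.1%), against 41% of all distal regions. Among regions with a q-value at or below the median of the list, 9 distal ones lay nearest to Myc. It then stood at place 42 among genes, tied with 23 others. Among those with an IDR score of 1000 there were 10, at place 19, tied with 14 other genes. Klf6 had the most in both sets. Of the 31 regions nearest to Myc, 29.0% were in the set with the lower q-values, and of the 46 in the window 23.9%, against 46.0% of all distal regions. The median width was 472 bp for the 31 regions, 420 bp for the 46 and 388 bp for all distal regions.

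Joined where neighbours lay within 10 kb, the 46 regions formed 7 clusters with 16 regions in all, and 30 stood alone. The largest held 3 regions, of which one group spanned 4.55 kb from 61532092 to 61536643, at 449 to 453 kb upstream, with folds of at most 6.26. The other spanned 11.2 kb from 61608293 to 61619533, at 366 to 377 kb upstream, with folds up to 10.8. Of the 46 regions, 34.8% had a neighbour within 10 kb, against 44.5% of all distal regions. Allowing 20 kb, 6 regions from 43.2 to 98.2 kb downstream joined into 1 group over 55.5 kb that spans the Pvt1 5′ end. The longest stretch between neighbouring regions of the window was 292463 bp, between 366 and 73.1 kb upstream, and the outermost upstream region lay 1206 kb from Myc.

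The 31 regions belong to Myc only if protein-coding 5′ ends alone are counted. With 5′ ends of genes of every type, 3 remained nearest to Myc and 8 were nearest to Pvt1, and the others were nearest to noncoding genes and pseudogenes such as D030024E09Rik, Gm41333 and Macroh2a3. None of the 20 other genes with a strand in the window had a region within 1 kb of the 5′ end. The nearest 5′ end need not be that of the gene on which a region acts.

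Beyond the 9 members, the wider network was read by the same rule. Among the further partners of Max and Mlx, an open 5′ end was found for 3 of 5, beside 40.7% of all protein-coding genes. Mxd3 had one with a fold of 3.74, lower than the 3.998 of the member Mxi1, and Mxd4 one with a fold of 12.2. The region at the 5′ end of Mxi1 was not in the stricter set by q-value or at an IDR score of 1000. Mlxip, the partner of Mlx, had one with a fold of 8.68. Mga, a large Max partner, and Mlxipl, also called ChREBP, had none, and the nearest regions lay 24.7 and 16.9 kb downstream.

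Cofactors of Myc showed an open 5′ end in 4 of 8 cases, near the share of 40.7% of all protein-coding genes, and those without were Zbtb17, Kat5, Ruvbl2 and Smarcb1. For Ruvbl2, the nearest region lay 1.57 kb downstream, just past the limit. Of the 9 genes for Myc turnover or binding, 7 had one, beside the same 40.7%, among them Fbxw7, the ubiquitin ligase receptor that marks Myc for degradation, with a fold of 10.7. Huwe1 and Skp2, both parts of ubiquitin ligases, did not. Gsk3b, a kinase that primes Myc for Fbxw7, had 4 distal regions, with a fold of up to 16.03.

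Classical Myc targets showed an open 5′ end in 16 of 20 cases, against 40.7% of all protein-coding genes. They included the nucleolar proteins Ncl (fold 14.2) and Npm1 (12.7), the RNA polymerase I subunit Polr1b (11.5) and the spermidine synthase Srm (10.8). These are among the higher folds, and the lowest was that of Odc1, at 4.13. The targets without an open 5′ end were Ldha, Fbl, Ccnd2 and Tert. Hspd1 and Hspe1, which encode partner chaperonins, share 1 region within 1 kb of both 5′ ends, so that the same region is counted for each. Many of these targets serve every growing cell, and the count was not compared with other genes of that kind.

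**Figure D5:**
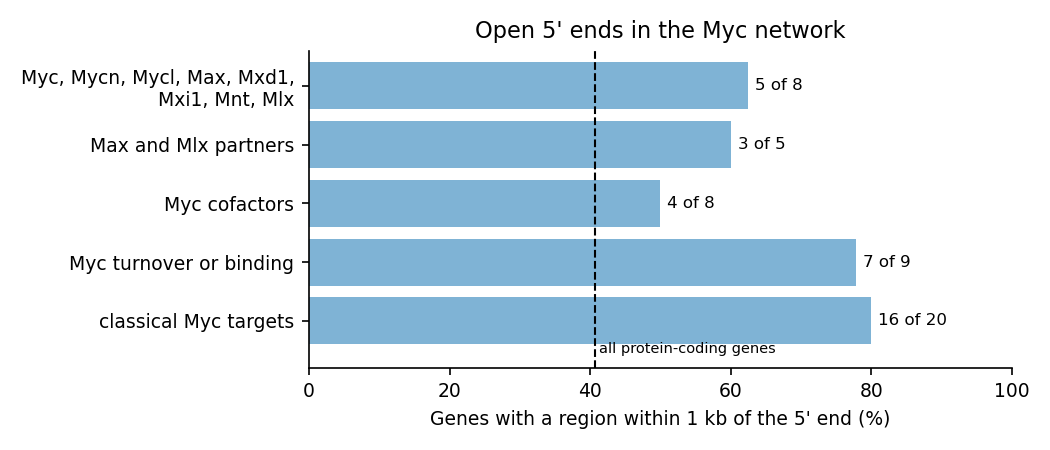
Percent of genes with an open region within 1 kb of the 5′ end in the protein-coding members and 4 further lists, with the number of genes beside each bar and all protein-coding genes as a dashed line at 40.7%. The bars read 5 of 8 members, 3 of 5 Max and Mlx partners, 4 of 8 cofactors, 7 of 9 turnover or binding genes and 16 of 20 classical targets.

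Of the 15 targets matched in the RefSeq promoter table, 14 had a promoter overlapped by a region and 5 had CACGTG in a promoter (33.3%), against 29.4% and 8.09% of all genes in that table. The 5 were Hspd1, Eif4e, Ldha, Cdk4 and Eif4a1, and a region overlapped the promoter in each. For Ldha this was another start site than the outermost. Over all genes in that table, 965 of the 7951 with an overlapped promoter had CACGTG in a promoter. The targets are a textbook list and Myc binds at the E-box, so that their share with the motif is a description only. Cdk4, a kinase that drives entry into S phase, is shown because its promoter held the most E-boxes of these genes, 4, in capitals.

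Cdk4 (chr10:127063285-127063544, + strand): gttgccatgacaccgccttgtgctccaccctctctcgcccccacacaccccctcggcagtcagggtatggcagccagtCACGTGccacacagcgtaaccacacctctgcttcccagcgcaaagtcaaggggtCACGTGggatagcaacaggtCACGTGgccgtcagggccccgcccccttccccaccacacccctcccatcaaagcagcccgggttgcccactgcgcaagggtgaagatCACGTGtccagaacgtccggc

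All 260 bases shown lay in the region at the Cdk4 5′ end, at chr10:127063151-127063839, which had a fold of 6.39.

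Over all RefSeq promoters, 40.3% of the 2349 with CACGTG were overlapped by a region, against 26.3% of the 30502 without. Base composition moved with this difference, since the median GC content was 58.0% with and 52.3% without the motif. Between 60% and 70% GC, the shares were 58.4% and 56.3%, and between 50% and 60% they were 38.4% and 27.6%. Below 50% GC they were 10.1% and 6.1%, and from 70% GC they were 51.2% and 48.7%. The part of GC content in the difference was not tested beyond these steps. GGGCGG went with a wider gap, at 52.2% with and 13.4% without it, and TATAAA with a gap in the other direction, at 11.8% against 29.7%. The Mlx promoter, with 1 E-box and 55.0% GC, was thus among the promoters with the motif and no region, while Max (64.7% GC) and Mnt (70.7% GC) were among those with both.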

How the data were processed

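Bulk ATAC-seq was measured in 4 mSGO samples. The authors ran the ENCODE ATAC-seq pipeline on 75 bp paired-end reads for alignment and peak calling, and merged all samples. Its version and threshold are not given in the sources used here. The deposited list holds, for each region, an IDR score, a fold (ratio) of signal over background and the −log10 of a q-value at each summit, and its column of p-values was not used. Depth per sample is unknown.

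The 69545 lines were joined into 32011 distinct regions, each with the values of the summit with the lowest q-value. The submitters' processing notes name GRCm39 and HOMER, with no role, and the paper's methods used HOMER for motif enrichment. Regions lay within 1 kb of 40.7% of protein-coding 5′ ends in GRCm38.p6 but of 5.03% in GRCm39, and of 3.81% to 4.85% when the former were shifted, which is why positions were taken as GRCm38. Genes came from the RefSeq table and their strand from GENCODE by name. Genes without a strand were left out. Distal regions, those more than 1 kb away from all protein-coding 5′ ends, went to the nearest such end, and for Pvt1 to that of any gene type.

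Members and lists were chosen with earlier results of these data known. Genes named were the members, all Max and Mlx partners, the listed genes without a region at the 5′ end, the neighbours of Myc and the 5 genes closest to it in distal regions. Regions named were those nearest to Myc, the strongest and those in Pvt1. Other listed genes were picked after their values were seen. No significance test was made, and functions were tested on simulated data. Alternatives were other distances, stricter sets, every line and every gene type. Python 3.11.15, numpy 2.4.6, pandas 2.3.3 and matplotlib 3.10.9 were used.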

Additional observations from a re-analysis of the deposited data

How the results depend on the processing

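Leaving out samples was not possible, since the list gives no values by sample, and no paired analysis was possible because the merged list carries no sample numbers. The 31 distal regions nearest to Myc became 9 in the stricter set by q-value, 10 at an IDR score of 1000, 80 when every line was counted and 3 with 5′ ends of every gene type, and stayed at 31 beyond 2 kb. The 46 regions of the window became 11 in the stricter set, 12 at a score of 1000 and 25 within 500 kb, with 39 within 1 Mb. The 5 members with a region at the 5′ end (Mycl, Max, Mxd1, Mxi1 and Mnt) numbered 5 within 500 bp, within 2 kb and by any base within 1 kb, and 3 (Max, Mxd1 and Mnt) in the stricter set or at a score of 1000, the latter a threshold added after the data were seen. The share of all protein-coding genes fell as well, to 27.5% and 25.5%. The smaller sets hold fewer regions by construction. The 13 regions in Pvt1 became 3 and 4 in these sets, both added after. The 7 clusters became 5 when joined within 5 kb and 9 within 20 kb. Unknown depth limits every statement that a region is absent, and the list cannot tell passages, ages or mice apart.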
